A study of Mus musculus with 4 samples.

Results

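S100 proteins are small calcium-binding proteins of vertebrates, and 10 of their genes were followed here in sorted mouse mammary cells. The genes were chosen by symbol from the deposited table of gene counts: S100a1, S100a4, S100a6, S100a8, S100a9, S100a10, S100a11, S100a13, S100a14 and S100a16. All 10 symbols were found among the 24442 genes of the table. The source of the RNA was the mammary gland of female mice aged 5 weeks with Lgr6-eGFP-CreErt2, an allele that places a green fluorescent protein and a tamoxifen-inducible Cre recombinase under the control of the Lgr6 locus. Cells negative for lineage markers were sorted by Lgr6 into positive and negative populations and 2 libraries were sequenced per population, so that every group carries the same reporter allele, age and sex and no drug treatment is recorded. The reporter marks whichever cells use the Lgr6 locus. The sources used here name no lineage marker, describe no gate for Lgr6-negative cells and do not state whether separate animals gave the replicates. The p-values below therefore measure the spread between these libraries, which may be technical.

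An S100 protein folds around a pair of calcium-binding loops called EF hands, usually works as a dimer, and on binding calcium exposes a surface that grips a target protein. Some members act inside the cell on annexins, which bind membranes, or on the cytoskeleton. Others are released and bind receptors on neighbouring cells, and S100A8 with S100A9 forms calprotectin, an abundant protein of neutrophils and monocytes that also sequesters metal ions from microbes. In the mammary gland, members are made by epithelial cells, fibroblasts and leukocytes alike.

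Total counts ran from 6819127 to 7167465 per library and genes detected from 11959 to 14144. The ribosomal RNA precursor Rn45s took 30.8% of the counts of replicate 2 of the Lgr6-negative population and 14.5% to 18.7% in the others, and with Rn45s left out the same 4 S100 genes passed. Lgr6 itself was counted 172 and 655 times in Lgr6-positive libraries and 3 and 10 times in Lgr6-negative ones (log2 fold change 5.52, SE 1.47, edgeR adjusted p = 0.0510). Marker lists set the populations apart: all 7 tested luminal and pan-epithelial genes were higher in Lgr6-positive cells and all 5 tested pan-leukocyte genes were lower. Keratinocyte, endothelial and red-cell lists were also higher there, with 3 of 3, 5 of 5 and 4 of 5 tested genes passing. In such bulk libraries, fewer cells of a type and less RNA per cell cannot be told apart.

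The comparison of Lgr6-positive with Lgr6-negative cells asked which transcripts distinguish the populations. S100a4, S100a8 and S100a9 fell in Lgr6-positive cells, by 39.9-fold, 6.60-fold and 7.45-fold, and S100a16 rose 25.8-fold. The other 6 members did not pass a Benjamini-Hochberg adjusted p of 0.05 in edgeR's quasi-likelihood test. Across all 11661 tested genes, 9.06% passed in either direction, 4.49% higher and 4.57% lower, against 4 of the 10 members, 1 higher and 3 lower. All 10 members passed the filter on low counts. Their median log2 fold change was -0.84, against 0.10 over all tested genes. In 7 of the 10 members the libraries of the populations did not overlap, 2 with Lgr6-positive cells above and 5 with them below, but 56.0% of all tested genes also separated in this way. The members together took 0.136% and 0.128% of the counts in the Lgr6-positive libraries and 0.302% and 0.244% in the Lgr6-negative libraries. These totals include Rn45s, which took 30.8% of the counts of replicate 2 of the Lgr6-negative population. S100a4 alone made up 41.7% and 36.9% of the member counts in Lgr6-negative cells and 3.72% and 1.83% in Lgr6-positive cells. In the latter, S100a6 and S100a11 made up 61.5% and 66.7% of them.

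**Figure D1:**
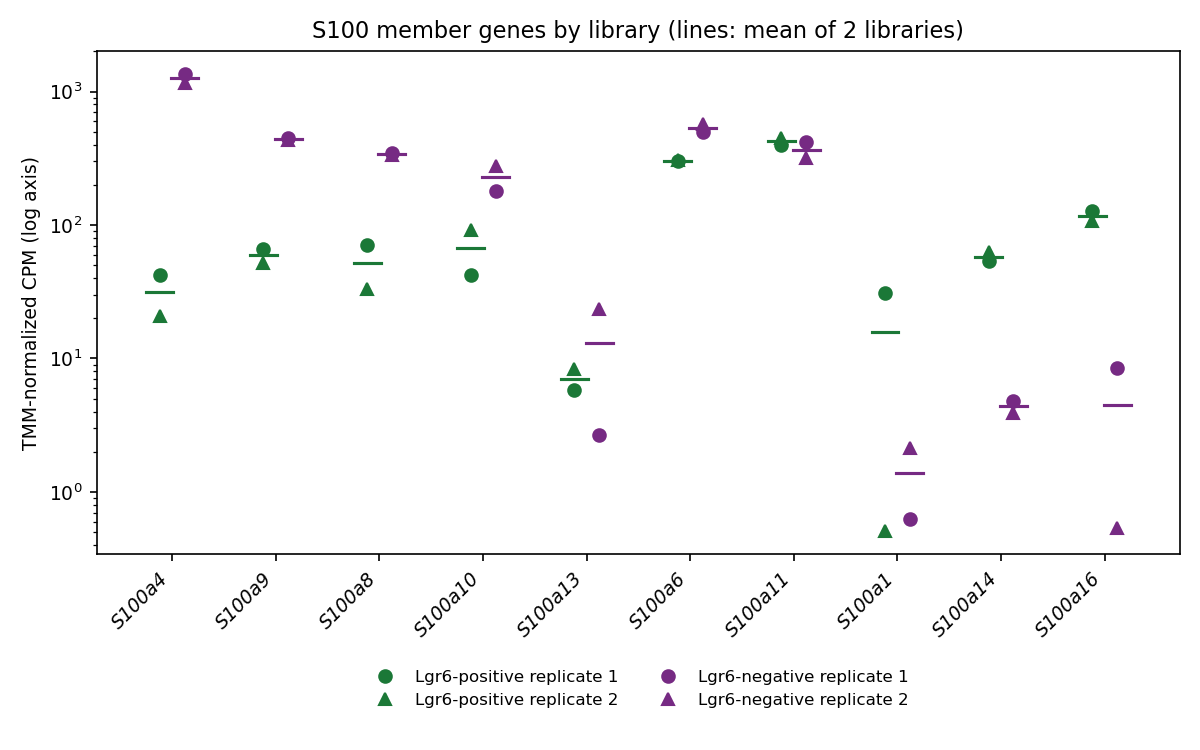
TMM-normalized CPM (counts adjusted for library depth and composition, log axis) of the 10 S100 genes in each library, ordered by fold change, with circles for replicate 1, triangles for replicate 2 and lines at the mean of 2 libraries. S100a4, S100a9 and S100a8 lie lower in both Lgr6-positive libraries (green) than in both Lgr6-negative libraries (purple), S100a16 and S100a14 lie higher, and S100a11, S100a13 and S100a1 overlap.

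Among members with a released form, S100a8 and S100a9 encode the subunits of calprotectin. S100a8 (ENSMUSG00000056054.9, chromosome 3, 90668978 to 90670035 of GRCm38, plus strand) had 573 and 261 counts in Lgr6-positive and 2232 and 1881 counts in Lgr6-negative libraries. Its level was 51.7 ± 26.3 CPM against 341 ± 9.81 CPM (each a mean with its SD over n = 2 libraries, here and below), a log2 fold change of -2.72 (SE 0.53, edgeR adjusted p = 0.0151). Both Lgr6-positive libraries lay below both Lgr6-negative libraries, and replicate 2 was the lowest of the 4. With replicate 1 of Lgr6-positive cells left out, the log2 fold change of S100a8 was -3.37, and with replicate 2 left out it was -2.31. S100a9 (ENSMUSG00000056071.12, chromosome 3, 90692632 to 90695721, minus strand), the partner subunit, had 541 and 410 against 2871 and 2439 counts. This gave 59.1 ± 10.2 against 440.75 ± 10.2 CPM and a log2 fold change of -2.90 (SE 0.43, edgeR adjusted p = 0.00469), again without overlap. The subunits kept a similar proportion, with 1.06 and 0.637 counts of S100a8 per count of S100a9 in Lgr6-positive and 0.777 and 0.771 in Lgr6-negative libraries. These ranges overlapped.

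S100a4 (ENSMUSG00000001020.8, chromosome 3, 90603771 to 90606045, plus strand) encodes a protein that binds the heavy chain of nonmuscle myosin and is made by leukocytes and fibroblasts. It had 345 and 163 counts in Lgr6-positive against 8728 and 6463 in Lgr6-negative cells, with a level of 31.5 ± 15.3 against 1255 ± 151 CPM. Its log2 fold change of -5.32 (SE 0.47, edgeR adjusted p = 5.55e-04) was the most negative of the 10, and the populations did not overlap. With replicate 1 of Lgr6-positive cells left out the log2 fold change was -5.93, and with replicate 2 left out it was -4.92. GENCODE M21 also places 51.7% of the exonic bases of S100a4 in the gene model Gm42674 on the same strand, a model with no row in the table, so the split of its reads depends on the annotation the authors used. Its neighbour S100a3, which shares part of the same model, had no counts in any library.

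The fall was not of equal size in the 3 lower members, which a ratio within each library shows without any scaling. For each count of S100a4 there were 1.66 and 1.60 counts of S100a8 in Lgr6-positive cells and 0.256 and 0.291 in Lgr6-negative cells. The ratio of S100a9 to S100a4 was 1.57 and 2.52 against 0.329 and 0.377. Ptprc, the pan-leukocyte surface marker CD45, was used as a denominator in the same way. S100a4 stood at 0.876 and 0.881 counts per count of Ptprc in Lgr6-positive and 0.782 and 0.966 in Lgr6-negative libraries, ranges that overlapped. S100a8 stood at 1.45 and 1.41 per count of Ptprc in Lgr6-positive but 0.200 and 0.281 in Lgr6-negative libraries, and S100a9 at 1.37 and 2.22 against 0.257 and 0.364. The calprotectin genes were thus more abundant relative to S100a4 and to Ptprc in both Lgr6-positive libraries. A two-sided exact permutation test of 2 against 2 libraries cannot go below p = 0.333, which each of these separated ratios reached (0.444 after Benjamini-Hochberg adjustment over the 12 ratios computed, chosen after values were seen).

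Most tested markers of the leukocytes that make these proteins were also lower, with exceptions among neutrophil genes. Of 11 neutrophil genes, 8 were tested: 4 were lower in Lgr6-positive cells, 1 was higher and 3 did not pass. Ly6g, the defining surface marker of mature mouse neutrophils, had no counts in any library, and Cxcr2 had 1 and 0 against 1 and 20. Mpo and Elane, which encode a peroxidase and an elastase of granulocyte precursors, had 8 and 0 against 1023 and 984 counts and 0 and 0 against 82 and 247 counts. Elane passed (edgeR adjusted p = 0.0362), but not under library-size scaling in edgeR (adjusted p = 0.0539). Ngp, a neutrophil granule gene, had a log2 fold change of -4.06 (SE 0.53, edgeR adjusted p = 0.00267), and there were 4.24 and 1.62 counts of S100a8 per count of Ngp in Lgr6-positive against 1.22 and 1.01 in Lgr6-negative libraries. The higher gene was Ltf, the lactoferrin gene that mammary epithelium also uses (log2 fold change 3.67, SE 0.64, edgeR adjusted p = 0.00986). With replicate 1 of Lgr6-negative cells left out its log2 fold change was 4.73, and with replicate 2 left out it was 3.05. Retnlg, a resistin-like gene of neutrophils, had 79 and 149 counts in Lgr6-positive cells and none in Lgr6-negative cells. It missed the threshold in edgeR (adjusted p = 0.0725) but passed under 4 of 12 alternatives (the stricter filter, DESeq2, limma-voom and without replicate 1 of the Lgr6-positive population), with adjusted p-values from 0.00217 to 0.204 over all 12. The list summed to 400.2 and 587 CPM in Lgr6-positive and 1036 and 1019 CPM in Lgr6-negative libraries. Ltf alone gave 342 and 508.5 CPM of the former, and without it the sums were 58.6 and 78.4 against 985 and 1003 CPM. Monocyte and macrophage genes summed to 1370 and 1618 against 20931 and 22489 CPM, with 6 of 9 lower and none higher. Lyz2 alone gave 1040 and 1370 CPM of the former sums and 16972 and 18367 CPM of the latter. Fibroblast genes, by contrast, summed to 715 and 453 against 29.2 and 60.1 CPM, opposite to S100a4. The part of these cells in the levels of S100a4, S100a8 and S100a9 was not tested.

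S100a16 and S100a14 lie side by side on the plus strand of chromosome 3 and are expressed in many epithelia. S100a16 (ENSMUSG00000074457.10, 90537254 to 90543151) had 1031 and 845 counts in Lgr6-positive against 54 and 3 in Lgr6-negative libraries, or 117 ± 13.7 against 4.48 ± 5.58 CPM. The Lgr6-positive libraries were close together while the Lgr6-negative libraries were far apart, and the populations did not overlap. Its log2 fold change was 4.69 (SE 1.23, edgeR adjusted p = 0.0475). Without replicate 1 of the Lgr6-negative population it was 7.71, and without replicate 2 it was 3.77, so the size of the rise rests on which of these libraries is used. S100a14 (ENSMUSG00000042306.11, 90526856 to 90528837) had 437 and 494 against 31 and 22 counts, or 58.1 ± 6.37 against 4.37 ± 0.65 CPM. Its populations did not overlap either, but with a log2 fold change of 3.73 (SE 1.09) its adjusted p of 0.0678 in edgeR missed the threshold. It passed under 3 of 12 alternatives: edgeR with library-size scaling (adjusted p = 0.0499), edgeR without a filter (0.0422) and DESeq2 (3.96e-04). It did not pass in limma-voom (adjusted p = 0.111) or in edgeR with a replicate block (0.0880).

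Markers of several cell types were higher in the same libraries, and their part in the levels of S100a16 and S100a14 was not tested. The luminal and pan-epithelial list summed to 3411 and 3417 CPM in Lgr6-positive and 139 and 110 CPM in Lgr6-negative libraries, and the basal list to 1933 and 2078 against 205 and 210.1 CPM, with 3 of 7 tested basal genes higher. Keratinocyte genes, led by the suprabasal keratins Krt1 and Krt10, summed to 377 and 333 against 0.156 and 0.178 CPM, while Lor had no counts in any library. Fibroblast genes (sums given above, 2 of 6 passing), endothelial genes (1299 and 1621 against 150.4 and 121 CPM, 5 of 5 passing) and adipocyte genes (559 and 553 against 45.2 and 63.6 CPM, 1 of 2 passing) also had higher sums. Lpl alone gave 435 and 443 CPM of the adipocyte sums in Lgr6-positive libraries. Per count of Epcam, an epithelial adhesion gene, S100a16 stood at 0.231 and 0.197 in Lgr6-positive and 0.412 and 0.0441 in Lgr6-negative libraries, which overlapped. S100a14 stood at 0.0978 and 0.115 against 0.237 and 0.324, so the few S100a14 counts of the Lgr6-negative libraries were more numerous relative to Epcam (exact permutation p = 0.333, the smallest possible).

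The promoters of the 4 members that passed are shown because these genes moved in opposite directions within one gene cluster. RefSeq (GRCm38.p6) holds promoters of 8 of the 10 members, with S100a10 and S100a14 not matched, and the 250 bases before the annotated start are printed 5′ to 3′ on the strand of the gene, with motif matches on either strand in capitals. They are chr3:90603520-90603769 for S100a4, chr3:90668821-90669070 for S100a8, chr3:90695722-90695971 for S100a9 (minus strand) and chr3:90537004-90537253 for S100a16, the first of 2 starts listed for that gene.
S100a4: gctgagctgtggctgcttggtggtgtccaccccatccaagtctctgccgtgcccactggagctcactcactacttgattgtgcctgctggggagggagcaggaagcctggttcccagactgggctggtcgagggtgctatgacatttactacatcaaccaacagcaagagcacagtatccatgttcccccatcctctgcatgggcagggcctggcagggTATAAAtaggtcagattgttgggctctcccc
S100a8: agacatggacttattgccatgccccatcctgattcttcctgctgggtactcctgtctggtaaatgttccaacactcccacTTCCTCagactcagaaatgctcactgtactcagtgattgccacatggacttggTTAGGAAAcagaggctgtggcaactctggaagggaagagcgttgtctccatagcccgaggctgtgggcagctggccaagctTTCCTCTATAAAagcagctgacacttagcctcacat
S100a9: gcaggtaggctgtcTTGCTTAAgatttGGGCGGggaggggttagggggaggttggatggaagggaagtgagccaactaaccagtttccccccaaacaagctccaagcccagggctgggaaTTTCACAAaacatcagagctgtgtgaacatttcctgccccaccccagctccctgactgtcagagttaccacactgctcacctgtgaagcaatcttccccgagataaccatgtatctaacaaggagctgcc
S100a16: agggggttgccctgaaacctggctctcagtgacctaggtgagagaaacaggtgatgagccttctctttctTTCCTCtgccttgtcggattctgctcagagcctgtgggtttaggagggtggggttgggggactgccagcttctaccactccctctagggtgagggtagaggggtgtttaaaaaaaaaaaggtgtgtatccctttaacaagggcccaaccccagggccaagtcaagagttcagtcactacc

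The motifs searched were the TATA box TATAAA, a C/EBP-type site TTNNGNAA, a PU.1-type site GAGGAA, the AP-1 site TGANTCA and an SP-type site GGGCGG. C/EBP and PU.1 proteins are transcription factors of myeloid cells. Of 32851 RefSeq promoter windows of the same length, 12.4%, 36.8%, 23.3%, 6.75% and 32.7% held these motifs in that order. S100a4 and S100a8, both lower in Lgr6-positive cells, held TATAAA at 31 to 26 and 30 to 25 bases before the start, and these were the only TATAAA matches among the 8 promoters. S100a8 also held a C/EBP-type match at 117 to 110 bases and PU.1-type matches at 170 to 165 and 36 to 31 bases before the start, the latter directly next to TATAAA. S100a9 held C/EBP-type matches at 236 to 229 and 130 to 123 bases and an SP-type match at 223 to 218 bases. S100a16, higher in Lgr6-positive cells, held a single PU.1-type match at 180 to 175 bases, and S100a4 held no C/EBP-type or PU.1-type match. S100a11, which did not pass, held a PU.1-type match at 153 to 148 bases and SP-type matches. The only AP-1 matches among the 8 promoters were in S100a11, at 136 to 130 and 38 to 32 bases. Such matches are letters in a window and not measured binding.

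**Figure D2:**
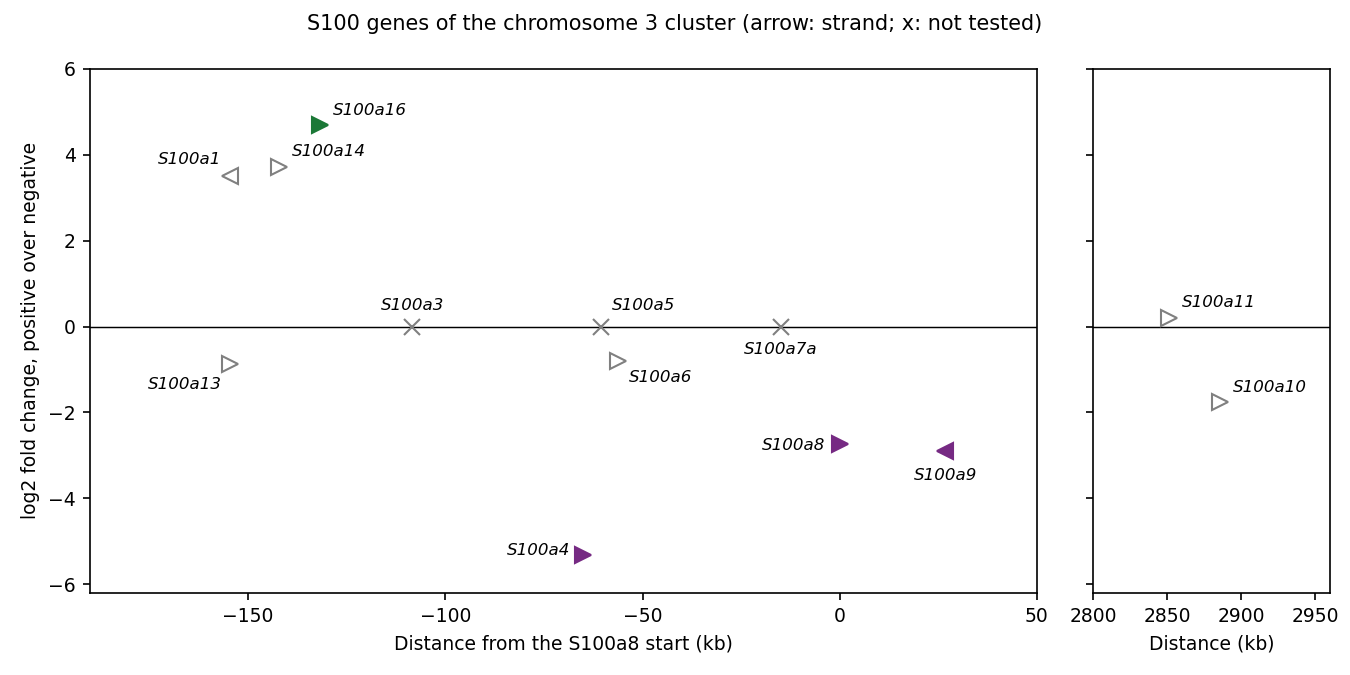
Log2 fold change (Lgr6-positive over Lgr6-negative) of the S100 genes of chromosome 3 by distance of their start from that of S100a8 in kb, with arrows for strand, filled symbols for genes that passed and crosses, drawn at 0, for genes not tested. S100a16 at -132 kb is higher, S100a4 at -65.2 kb, S100a8 at 0 kb and S100a9 at 26.7 kb are lower, and S100a11 and S100a10 lie 2852 and 2886 kb away.

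All 10 members lie on chromosome 3, 8 of them in the cluster that runs from S100a1 to S100a9. Along it, S100a1, S100a14 and S100a16, at -155, -142 and -132 kb from the start of S100a8, had positive fold changes, and of these only S100a16 passed. S100a4, S100a8 and S100a9 on the other side were lower. S100a3, between S100a16 and S100a4, and S100a5 and S100a7a, between S100a4 and S100a8, had no counts in any library. S100a13 at the first end and S100a6 between S100a4 and S100a8 had negative fold changes that did not pass, so direction did not simply follow position.

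S100a10, S100a6 and S100a11 encode intracellular partners of annexins and had at least 344 counts in every library. S100a10 (ENSMUSG00000041959.14, chromosome 3, 93555080 to 93564643), which has lost calcium binding and forms a fixed complex with annexin A2 at the cell membrane, had 344 and 727 counts in Lgr6-positive against 1144 and 1564 in Lgr6-negative libraries. Its level of 67.2 ± 35.3 against 228 ± 70.4 CPM did not overlap, with a log2 fold change of -1.76 (SE 0.58) and an edgeR adjusted p of 0.0941. S100a10 passed in edgeR without a filter (adjusted p = 0.0294) but not with library-size scaling (0.199). It did not pass in DESeq2 (adjusted p = 0.0544) or limma-voom (0.0651) either. With replicate 2 of the Lgr6-positive population left out its log2 fold change was -2.46, and with replicate 1 left out it was -1.31. S100a6 (ENSMUSG00000001025.8, 90612882 to 90624181), calcyclin, which binds annexin A11 and the ubiquitin ligase adaptor encoded by Cacybp, had 2461 and 2412 against 3168 and 3207 counts. The level of S100a6 was 304 ± 2.73 against 532 ± 53.6 CPM, without overlap, and its log2 fold change of -0.81 (SE 0.34, edgeR adjusted p = 0.177) shrank to -0.35 under library-size scaling. S100a11 (ENSMUSG00000027907.4, 93520488 to 93526287), a partner of annexin A1 in keratinocytes, had 3252 and 3538 against 2664 and 1797 counts. Its libraries overlapped at 424 ± 35.0 against 368 ± 68.0 CPM (log2 fold change 0.20, SE 0.35, edgeR adjusted p = 0.805).

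S100a13 and S100a1 were low and uneven. S100a13 (ENSMUSG00000042312.9, 90514435 to 90524581) takes part in the release of Fgf1 and interleukin 1 alpha without a signal peptide, and had 47 and 66 counts in Lgr6-positive against 17 and 131 in Lgr6-negative cells. The log2 fold change of S100a13 was -0.87 (SE 1.69, edgeR adjusted p = 0.828) and turned to 1.39 without replicate 2 of the Lgr6-negative population. S100a1 (ENSMUSG00000044080.9, 90511034 to 90514392, minus strand), best known from heart and skeletal muscle, where it regulates calcium channels, had 253 and 4 against 4 and 12 counts. Nearly all its counts came from replicate 1 of the Lgr6-positive population, without which the log2 fold change of 3.50 (SE 2.20, edgeR adjusted p = 0.389) became -1.41. In that library Acta1 had 1 count and Ckm, Myh4 and Tnnt3 had none. The source of its S100a1 counts was not tested. The RefSeq starts of S100a1 and S100a13 point away from each other and lie 105 bases apart. Their exons share no bases, and their values differed from library to library.

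**Figure D3:**
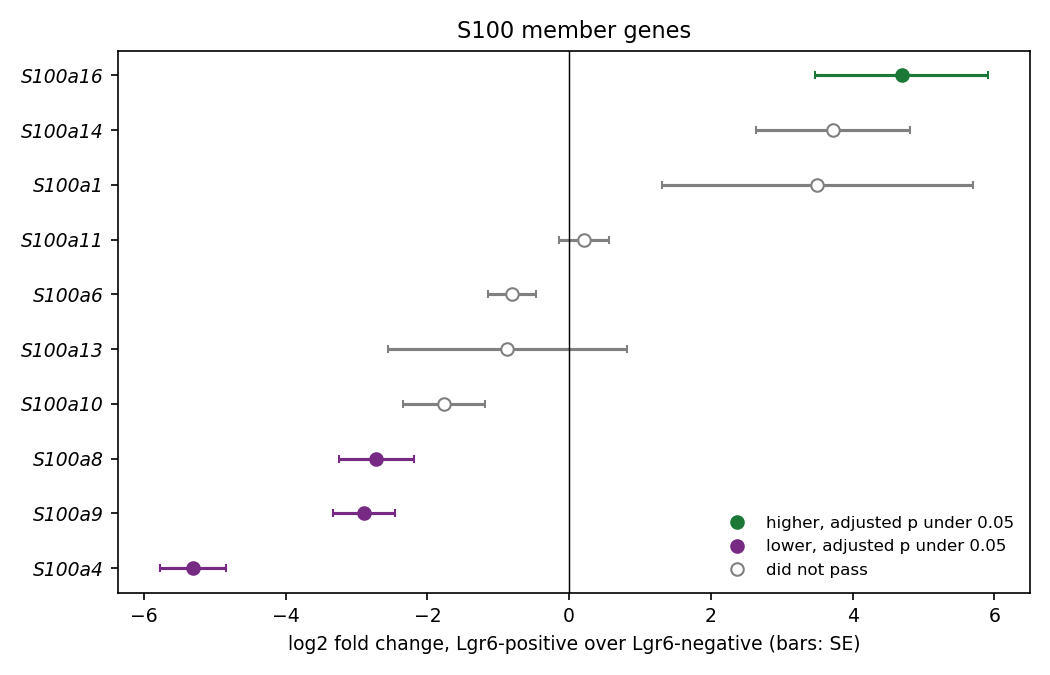
Log2 fold change (Lgr6-positive over Lgr6-negative) of the 10 S100 genes with bars of 1 standard error, filled where the edgeR adjusted p was under 0.05. Values run from -5.32 for S100a4 to 4.69 for S100a16, and the bars are widest for S100a1 and S100a13.

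Levels of different genes were compared per length, as CPM per kilobase of exon, with no test. In Lgr6-positive cells the order was led by S100a11 at 829 ± 68.6 CPM per kb, followed by S100a6 at 222 ± 1.99 and S100a9 at 113 ± 19.5, without overlap among these 3. S100a8 (74.4 ± 37.9), S100a16 (72.2 ± 8.46), S100a10 (55.4 ± 29.1) and S100a4 (53.9 ± 26.2) came next, and S100a14 (33.6 ± 3.69), S100a1 (22.7 ± 31.1) and S100a13 (9.88 ± 2.57) closed the order. From S100a9 down, each gene overlapped the next. In Lgr6-negative cells S100a4 came first at 2150 ± 258 CPM per kb, ahead of S100a9 (844 ± 19.5) and S100a11 (719 ± 133). S100a8 (492 ± 14.1), S100a6 (389 ± 39.2) and S100a10 (188 ± 58.1) followed, and none of these genes overlapped its neighbour. Part of this separation rests on the length used. With the longest transcript (511, 498 and 783 bases instead of 511, 694 and 1367), S100a11, S100a8 and S100a6 overlapped. The last 4 were S100a13 (18.1 ± 20.4), S100a16 (2.77 ± 3.45), S100a14 (2.53 ± 0.38) and S100a1 (1.99 ± 1.54), which overlapped. S100a4 moved from place 1 in Lgr6-negative to place 7 in Lgr6-positive cells, while S100a8 was in place 4 in both.

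**Figure D4:**
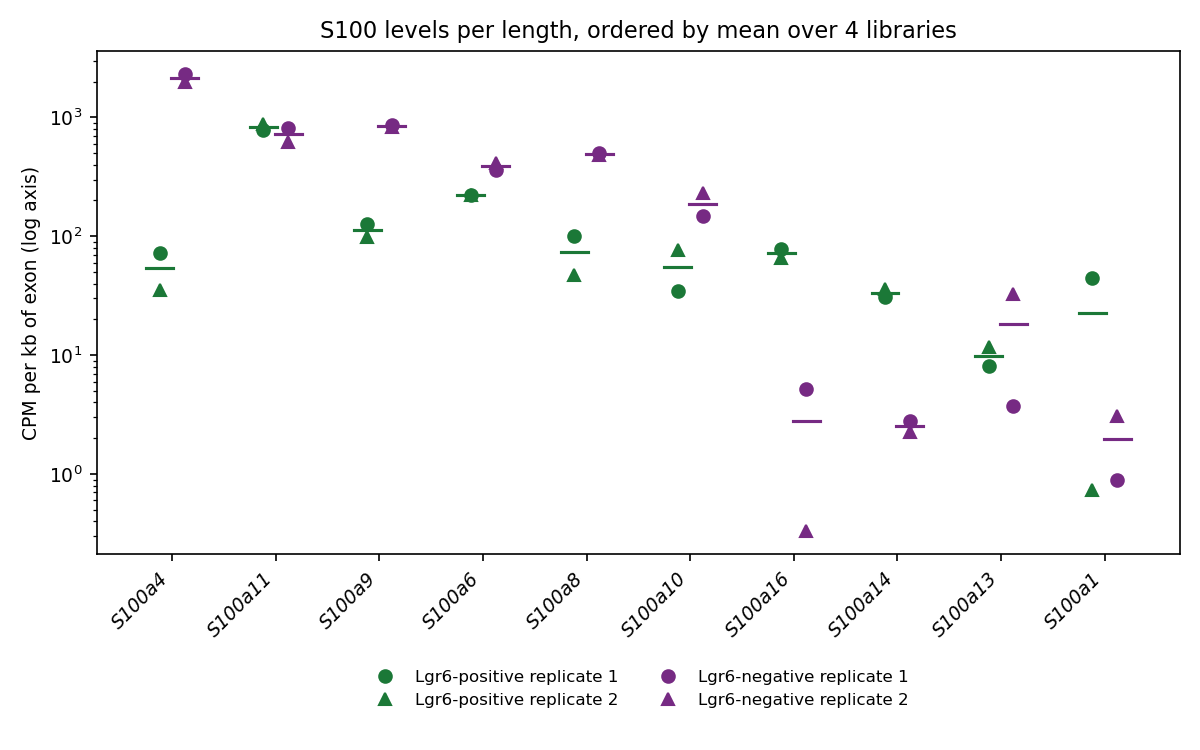
CPM per kb of exon (log axis) of the 10 S100 genes in each library, ordered by the mean over 4 libraries, with lines at the mean of each population. S100a11 is at 625 to 877 in every library, while S100a4 is at 1967 and 2332 in Lgr6-negative and 35.4 and 72.4 in Lgr6-positive libraries.

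Other S100 genes had few or no counts. Of 6 further members listed (S100a3, S100a5, S100a7a, S100b, S100g and S100z), none passed the filter and 4 had no counts at all. S100b, a marker of Schwann cells, had 25 and 1 counts and S100g, a calcium carrier of absorptive epithelia, 17 and 0 counts in Lgr6-positive libraries, each with none in Lgr6-negative libraries. S100a2, added after its values were seen, had a single count. Among the fused-type genes, large skin barrier proteins with an S100 domain at one end, Tchh had 0 and 20 and Rptn 0 and 31 counts in Lgr6-positive libraries. Tchhl1 had 138 counts, all in replicate 2 of the Lgr6-negative population, and Hrnr had 1 count there. Each of these genes drew nearly all its counts from a single library.

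Partner genes were listed by role: annexins, receptors and adaptors of S100A8 and S100A9, and intracellular partners. Over the 3 lists, 3 of 23 tested genes passed, all higher, against 4.49% higher and 4.57% lower among all 11661 tested genes. No list was tested as a set. Of 10 tested annexins, Anxa8 was higher and 9 did not pass, with a median log2 fold change of -0.22, against 0.10 over all tested genes. Anxa8, an annexin of ductal epithelium, had 606 and 674 against 8 and 8 counts (log2 fold change 5.88, SE 1.09, edgeR adjusted p = 0.0125). Anxa9 (6.27, SE 2.37, adjusted p = 0.133), Anxa11 (-2.57, SE 1.13, 0.196) and Anxa5 (-0.89, SE 0.46, 0.283) followed in the order of p-values. Anxa2, the partner of S100a10, had 2133 and 2411 against 2688 and 1353 counts, and its libraries overlapped (log2 fold change -0.22, SE 0.42, edgeR adjusted p = 0.827), a value that was positive under library-size scaling. There were 0.161 and 0.302 counts of S100a10 per count of Anxa2 in Lgr6-positive and 0.426 and 1.16 in Lgr6-negative libraries, without overlap (exact permutation p = 0.333, the smallest possible). Anxa1, the partner of S100a11, was at 318 ± 34.0 against 324 ± 59.6 CPM (log2 fold change -0.03, edgeR adjusted p = 0.983, with the sign turning under library-size scaling and DESeq2 size factors). The ratio of S100a11 to Anxa1 was 1.17 and 1.53 in Lgr6-positive and 1.14 and 1.14 in Lgr6-negative libraries.

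Among receptors and adaptors for released S100A8 and S100A9, 1 was higher and none was lower, against 4.49% and 4.57% of all tested genes. Of 5 tested, Cd36, a scavenger receptor that also takes up fatty acids in endothelium and adipocytes, was higher, with 479 ± 93.7 CPM in Lgr6-positive and 105 ± 12.5 CPM in Lgr6-negative cells (log2 fold change 2.19, SE 0.41, edgeR adjusted p = 0.0132). The others did not pass, among them Bsg (0.91, adjusted p = 0.237), Tlr4, the endotoxin receptor (-0.94, 0.678), and its co-receptor Ly96 (-0.31, 0.930). Ager, which encodes the receptor RAGE, had 1 and 0 against 4 and 0 counts and was not tested. Endothelial markers were higher in the same libraries, with the sums given above. Of the adipocyte genes only Lpl passed, at 435 and 443 CPM in Lgr6-positive libraries. Adipoq had 18 and 1 against 0 and 0 counts, Plin1 had 0 and 123 against 0 and 0, and Cidec had none in any library. The part of endothelial cells and adipocytes in the level of Cd36 was not tested.

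Of 8 tested intracellular partners, Dlc1, a GTPase-activating protein gene whose product binds S100A10, was higher, with 158 ± 50.5 CPM in Lgr6-positive and 4.17 ± 3.91 CPM in Lgr6-negative cells (log2 fold change 5.25, SE 0.96, edgeR adjusted p = 0.0122) and 7 did not pass. Its log2 fold change was 6.78 with replicate 2 of Lgr6-negative cells left out and 4.49 with replicate 1 left out. Iqgap1 (-0.82, adjusted p = 0.137), Il1a (-4.10, 0.274) and Fgf1 (2.14, 0.440) came next. Il1a and Fgf1 are the cargoes associated with S100a13. Without replicate 1 of the Lgr6-positive population, which left no Il1a counts there, Il1a passed as lower (edgeR adjusted p = 0.0215, the smallest over its 12 alternatives, which reached 0.438) and the log2 fold change of Fgf1 was -0.15. Myh9, the nonmuscle myosin bound by S100A4, was at 676 ± 22.8 against 491 ± 146 CPM (0.46, edgeR adjusted p = 0.478), while S100a4 itself differed 39.9-fold. Ahnak, the scaffold of the S100A10 complex, was at 3014 ± 389 against 2928 ± 1054 CPM (0.04, edgeR adjusted p = 0.958, negative without replicate 1 of the Lgr6-positive or replicate 2 of the Lgr6-negative population).

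**Figure D5:**
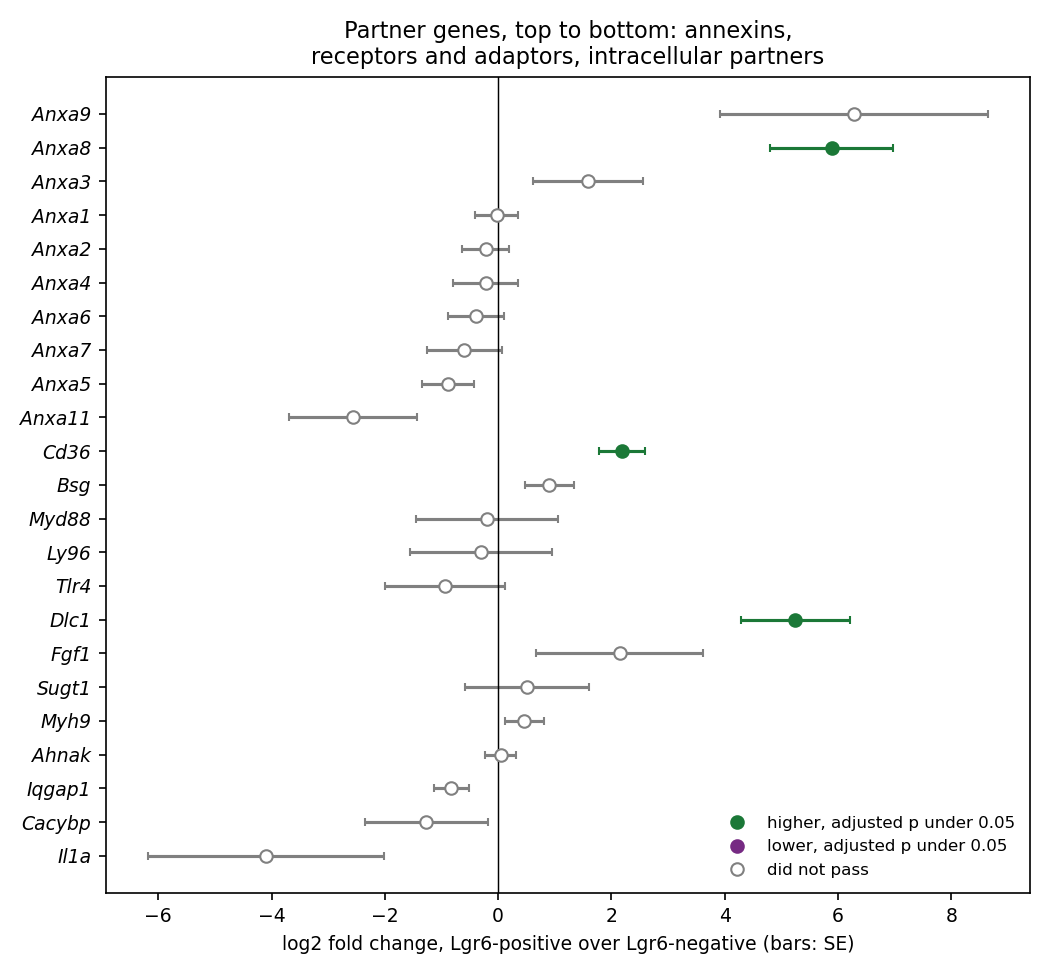
Log2 fold change (Lgr6-positive over Lgr6-negative) of the 23 tested partner genes with bars of 1 standard error, in 3 groups from annexins at the top to intracellular partners at the bottom, filled where the edgeR adjusted p was under 0.05. Anxa8, Cd36 and Dlc1 are higher, and the annexins that did not pass run from -2.57 for Anxa11 to 6.27 for Anxa9.

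Tested genes with the pattern most like each member were found as the Euclidean distance between log2 CPM over the 4 libraries after each gene's mean was subtracted, given as a description. Nearest to S100a4 were the leukocyte receptor gene P2ry10 (distance 0.127) and Ptprc (0.217). For S100a8 they were Slbp (0.237) and Zfyve9 (0.240), and for S100a9 Nr1h2 (0.140) and Mafg (0.217). S100a16 was nearest to Slc44a3 (0.131) and the fibrillar collagen gene Col3a1 (0.144), and S100a14 to Nedd4 (0.121) and the transporter gene Abcg2 (0.218). The genes nearest to the remaining members were Cycs and Ccl6 for S100a10, Grsf1 and Sepw1 for S100a6, Srsf2 and Sin3a for S100a11, Zufsp and Xab2 for S100a13, and Gpr180 and Filip1 for S100a1, at distances from 0.0567 to 0.803. With 4 libraries, many genes share such a pattern.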

How the data were processed

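RNA was measured in 2 Lgr6-positive and 2 Lgr6-negative libraries. The authors deposited a table of expected counts per gene, not scaled for depth. The tools listed, per the submitters' processing notes, are STAR 2.4.2a and RSEM 1.2.22, and the build is mm10. Annotation and strand setting: not given in the sources used here. Fractional values, 3.36% to 4.86% per library, were rounded to whole counts. No column was left unmapped to a sample.

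The test was edgeR's (version 4.0.16, R 4.3.3): filterByExpr (minimum count 10, minimum total 15) kept 11661 genes, TMM factors were 1.21, 1.13, 0.929 and 0.787 in the order Lgr6-positive replicates 1 and 2, then Lgr6-negative, and glmQLFit and glmQLFTest used group as the only factor. P-values were adjusted over all tested genes. SE was obtained as the size of the log2 fold change divided by the root of the F statistic. Positions and exon lengths came from GENCODE M21 (GRCm38, also called mm10). Reads were PCR-amplified without molecular identifiers, so counts are not counts of molecules. Exact permutation tests were two-sided. Alternatives covered scaling, filter, test (DESeq2 1.42.0, limma-voom 3.58.1), replicate block, each library and Rn45s. Only the edgeR fit was tried on simulated counts, not the other steps.

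The members and lists were chosen with earlier results of these data known. Text names all members, partner genes by smallest p in each list or as the stated partner of a member, markers where a result turns on them, and the 2 nearest genes by pattern (ribosomal protein genes and numbered gene models passed over). A further partner list is not reported here.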

Additional observations from a re-analysis of the deposited data

How the results depend on the processing

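The 4 S100 calls (S100a4, S100a8, S100a9 and S100a16) were kept under all 12 alternatives, with 4 to 6 members called. The 3 partner calls (Anxa8, Cd36 and Dlc1) were also kept under all 12, with 3 or 4 called. The highest adjusted p was 0.00232 for S100a4, 0.0463 for S100a8, 0.0172 for S100a9 and 0.0494 for S100a16. Over all genes, 1057 were called, against 1821 without a filter, 2415 in DESeq2 and 1218 to 1986 when single libraries were left out, the most without Lgr6-positive replicate 1. Under library-size scaling the median gene moved up by 0.45 (log2), and 65.8% of calls were higher, against 49.6%. The labels do not say that replicate numbers pair the samples. Same-numbered libraries deviated from their group means with a correlation of -0.02 across genes, and the replicate block called 1340 genes and the same 4 members. The order of levels per length was identical with the longest transcript, in all 20 places. However, S100a11, S100a8 and S100a6 then overlapped in Lgr6-negative cells.

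Signs turned for values that did not pass. Under library-size scaling log2 fold changes became 0.41 for Anxa1, 0.19 for Anxa2 and 0.019 for Ly96. Anxa1 was at 0.0033 with DESeq2 size factors and in DESeq2. With single libraries left out, ranges were -1.41 to 4.59 for S100a1, -1.73 to 1.39 for S100a13, -0.22 to 0.16 for Anxa1, -0.58 to 0.22 for Anxa2, -2.09 to 1.87 for Ly96, -0.15 to 3.75 for Fgf1 and -0.30 to 0.45 for Ahnak. The cause was not tested. S100a1 had no value under the stricter filter. A lone library in a group was assumed to vary like the others. With 2 libraries per group, differences of a few fold, as for S100a6 and S100a10, may not be detectable. Far larger ones also missed the threshold, at 13.2-fold for S100a14, 45.9-fold for Lgr6 and 77.4-fold for Anxa9.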
